A study of Mus musculus with 2 samples.

Results

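The Kruppel-like factor (KLF) genes were followed in the mouse embryo at E3.75, the blastocyst stage, in whole blastocysts and in the inner cell mass (ICM). The members, taken by symbol from the deposited table, were Klf2, Klf3, Klf4, Klf5, Klf6, Klf9, Klf10 and Klf13, which are 8 of its 19559 genes. All were listed in both libraries. There was 1 library of whole blastocysts and 1 of ICMs freed from the outer cells by immunosurgery, in which antibody and complement lyse the trophectoderm. The embryos of both came from B6CBAF1 females and CD-1 males, with no treatment named in the labels. The sources used here do not say how many embryos went into a library. With 1 library of each kind there was no replicate, so no difference could be tested, and every interval below is a 95% interval for counting error in these libraries only. The reads came from amplified cDNA without molecular identifiers and are not independent molecules.

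KLF proteins are transcription factors with 3 zinc fingers at the carboxyl end that read GC-rich and CACCC-type elements. KLF2, KLF4 and KLF5 act together in the pluripotency network of mouse embryonic stem cells, where Klf4 is a target of the LIF and STAT3 pathway, and KLF5 is also needed in the embryo for the trophectoderm. KLF6 and its relative KLF7 are activators, KLF3, KLF8 and KLF12 recruit the corepressor CtBP, and KLF9, KLF10, KLF11, KLF13, KLF14 and KLF16 recruit the corepressor SIN3A.

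The zinc fingers are alike across the family, so it was asked how long a stretch of transcript any member shares letter for letter with another KLF or SP gene. The longest such run that was not a simple repeat (each base at 10% or more) was 26 bases, between Klf6 and Klf7. Klf5 and Klf9 shared 24 bases. The runs are shown because a read wholly inside one could come from either gene. They lie in the coding sequence of both genes and were read from the GENCODE M21 transcripts.
Klf6 and Klf7: gacaggtgtttctccaggtctgacca
Klf5 and Klf9: tcggatgagctgacccgccactac
For the other members the longest run was 21 bases (Klf2 and Klf13, each with Klf1) or 15 bases (Klf3 with Klf9, and Klf4 with Klf10). The sources used here give neither the read length nor how reads with several matches in the genome were handled.

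Promoters of 6 of the 8 members were found in the RefSeq table of GRCm38.p6. The 250 bases before the start of 4 of them are shown, Klf2 and Klf4 as the members with an ICM level above that of the whole blastocyst, and Klf6 and Klf9 as the most abundant members, with a level below it. Capitals mark matches to CCCNCNCCC on either strand, a pattern of the kind that KLF proteins bind.
Klf2, chr8:72318812-72319061, plus strand: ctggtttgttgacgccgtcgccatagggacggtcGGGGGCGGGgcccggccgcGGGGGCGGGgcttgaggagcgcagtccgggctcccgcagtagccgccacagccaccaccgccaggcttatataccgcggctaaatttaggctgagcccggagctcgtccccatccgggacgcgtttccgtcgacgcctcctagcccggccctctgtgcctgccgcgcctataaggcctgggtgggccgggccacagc
Klf4, chr4:55532476-55532725, minus strand: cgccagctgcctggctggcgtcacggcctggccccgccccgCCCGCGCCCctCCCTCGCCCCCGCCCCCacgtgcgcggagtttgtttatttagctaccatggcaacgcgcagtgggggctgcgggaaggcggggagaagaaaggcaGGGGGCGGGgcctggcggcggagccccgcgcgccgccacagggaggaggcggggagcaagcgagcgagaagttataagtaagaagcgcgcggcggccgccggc
Klf6, chr13:5861239-5861488, plus strand: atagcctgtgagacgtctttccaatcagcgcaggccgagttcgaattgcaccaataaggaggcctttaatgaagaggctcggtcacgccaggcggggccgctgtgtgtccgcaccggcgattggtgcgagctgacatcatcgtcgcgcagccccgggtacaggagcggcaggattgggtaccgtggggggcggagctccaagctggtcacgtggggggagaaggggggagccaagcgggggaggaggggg
Klf9, chr19:23140976-23141225, plus strand: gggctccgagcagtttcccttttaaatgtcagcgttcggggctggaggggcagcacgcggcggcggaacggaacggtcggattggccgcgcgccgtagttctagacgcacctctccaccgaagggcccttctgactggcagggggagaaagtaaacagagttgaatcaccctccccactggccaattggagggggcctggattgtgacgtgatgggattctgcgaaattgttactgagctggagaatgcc
The pattern was present in the windows of Klf2 (2 matches), Klf3 (3), Klf4 (5, several overlapping) and Klf13 (2), and in neither window of Klf6 and Klf9. It is found in 25.6% of the 32851 promoter windows of the table, and the GC content was 71.2% in the window of Klf2, 74.0% in that of Klf4, 64.8% in that of Klf6 and 59.6% in that of Klf9. The STAT-type palindrome TTCNNNGAA was found in 7.02% of all windows and, among the 6 members, in that of Klf9. These matches describe the letters of the windows and show no binding.

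Reads on listed genes came to 9271198 for whole blastocysts and 4125479 for ICMs, of which 15256 and 5143 fell on the 8 members. RPKM is the read count scaled by the gene length in kilobases and by the size of the library. In the ICM library most genes had a lower RPKM. The median log2 difference, ICM minus whole blastocyst, was -0.66 over 3013 genes (those at an RPKM of 5 or above in both). Values relative to that shift are called centred, and it multiplies each ICM ratio by 1.58. The markers of the outer layer and of the epiblast went with the labels. All 10 trophectoderm markers were at least 2-fold lower in the ICM library (9 when centred). Their summed RPKM was 1756 in whole blastocysts and 55.2 in the ICM, of which Krt18 gave 1418 and 29.4. Of the 8 epiblast markers 6 were 2-fold or more higher and none lower (8 and none when centred). They summed to 41.2 and 266.9, of which Tdgf1 gave 21.5 and 170.4. Of the primitive endoderm markers, 6 of 8 reached an RPKM of 1, of which 3 were higher by 2-fold or more and 1 lower, also when centred. Over all 8981 genes at an RPKM of 1 or more in a library, 8.96% were higher and 44.0% lower (16.9% and 20.5% when centred). In bulk libraries fewer cells of a type and less RNA per cell cannot be told apart.

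The 8 members had a different make-up in the 2 libraries. Their shares leave out the other KLF genes. Of those, Klf11 had an RPKM of 29.5 in whole blastocysts, above Klf5 and Klf10, and 11.3 in the ICM. In the whole blastocyst, Klf6 and Klf9 together led the 8 members, with Klf6 alone at 43.3% of their summed RPKM. In the ICM, Klf9 (25.0%), Klf6 (24.9%) and Klf10 (22.3%) stood close together, and Klf2 made up 10.3% where it had made up 1.77%. By reads, which take no account of length, the ICM shares were 39.6% for Klf6, 28.0% for Klf9, 19.7% for Klf10 and 4.71% for Klf2 (0.714% in whole blastocysts), so Klf6 led in both libraries and the ICM shares of Klf6 and Klf2 depended on the unit. The summed RPKM of the 8 was 150.3 in whole blastocysts and 68.4 in the ICM, a ratio of 0.455. That ratio depends on the scaling. The sum over all 8981 genes at an RPKM of 1 or more in a library was also lower in the ICM, at 91052 against 177375. Of the 8 members, 7 had an RPKM of 1 or more, and Klf13 had not. On the scale log2((ICM RPKM + 1)/(whole-blastocyst RPKM + 1)), which understates the change of low genes, 1 of the 7 (Klf2) was 2-fold or more higher in the ICM and 3 (Klf5, Klf6 and Klf9) at least 2-fold lower. Over all 8981 genes past the same limit, 8.96% were past 2-fold on the higher side and 44.0% on the lower. After centring, Klf2 and Klf4 were past 2-fold on the higher side and Klf5 and Klf6 on the lower, against 16.9% and 20.5% of all genes. The median difference of the 7 was -0.16, and that of all 8981 genes -0.84.

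**Figure D1:**
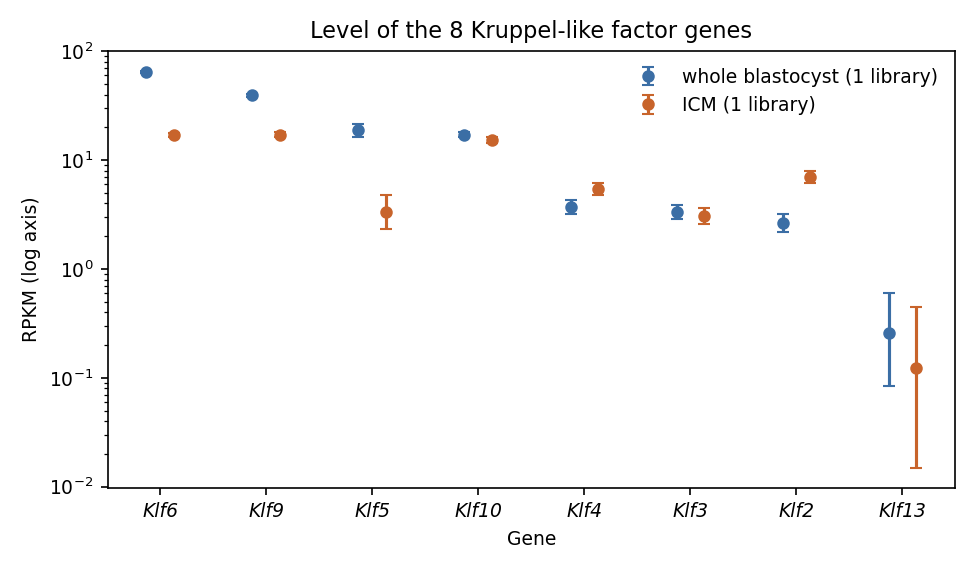
RPKM (log axis) of each of the 8 genes in the whole-blastocyst library (blue) and the ICM library (orange), with exact Poisson 95% intervals of the read count as bars. Klf6 and Klf9 are highest in whole blastocysts at 65.1 and 39.4, while Klf2 and Klf4 are the genes whose ICM point lies above the whole-blastocyst point.

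Klf2, Klf4 and Klf5, the members of the pluripotency network, went different ways. Klf2 had 109 reads in whole blastocysts and 242 in the ICM, an RPKM of 2.66 (2.19 to 3.21) and 7.01 (6.16 to 7.95). Its ICM level was higher, by a ratio of 2.64 (2.09 to 3.34), and by 4.16 (3.30 to 5.26) when centred. Klf4, one of the factors that reprogram somatic cells, had 194 and 241 reads and an RPKM of 3.71 (3.20 to 4.27) and 5.46 (4.80 to 6.20). That is a ratio of 1.47 (1.22 to 1.79), short of 2-fold as deposited, and 2.33 (1.92 to 2.83) when centred. Klf5 had 218 reads in whole blastocysts and 33 in the ICM, an RPKM of 18.8 (16.4 to 21.4) and 3.37 (2.32 to 4.74). It was the member with the lowest ratio, 5.57-fold lower in the ICM (3.85 to 8.29), and its log2 difference stayed below -1 after centring, at -1.52.

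The change of the ratio of a pair of members between the libraries depends neither on the scaling between them nor on gene length, whereas the ratio within a library depends on the lengths. In the whole blastocyst the RPKM of Klf2 was 0.142 of that of Klf5, and in the ICM it was 2.08 times that of Klf5, a 14.7-fold change of the ratio (9.38 to 23.2). The same comparison of Klf4 with Klf5 went from 0.197 to 1.62, an 8.21-fold change (5.36 to 12.8). In the ICM both Klf2 and Klf4 stood above Klf5 by RPKM and by reads. In whole blastocysts both stood below it by RPKM. By reads Klf2 was there at 0.5 of Klf5 and Klf4 near it, at 0.890 (109 and 194 reads against 218). No interval was computed for these ratios of reads. The RPKM ratios there rest on the length of 258 bases behind the RPKM of Klf5. At the length of the Klf5 last exon in GENCODE M21 (1886 bases) they would be 1.04 and 1.44. That holds only if the reads were counted over that exon, which the sources used here do not say. Klf2 changed more than Klf4 by a factor of 1.79 (1.32 to 2.43). Of the 28 pairs of members, each taken with the member of higher ICM ratio first, 20 had a counting interval wholly above 1. The others were the pairs with Klf13 and the pair of Klf3 and Klf10, whose change of 1.03 had an interval of 0.807 to 1.32. The pair of Klf6 and Klf5 was at the edge, at 1.45 (1.001 to 2.17).

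Klf6, an activator that is also induced in injured liver, was the most abundant member in whole blastocysts. It had 9262 reads there and 2037 in the ICM, an RPKM of 65.1 (63.8 to 66.4) and 17.0 (16.3 to 17.7). It was 3.83-fold lower in the ICM (3.65 to 4.02), or at a ratio of 0.412 (0.392 to 0.432) when centred. Its closest relative Klf7 rested on 43 and 3 reads, with a ratio of 0.0828 (0.0164 to 0.259).

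The partners of CtBP differed among themselves. Klf3 was nearly level, with 174 and 135 reads, an RPKM of 3.36 (2.88 to 3.89) and 3.09 (2.59 to 3.66) and a ratio of 0.921 (0.730 to 1.16). Klf8 had 402 and 1278 reads, an RPKM of 2.59 and 9.78, and was 3.77-fold higher in the ICM (3.37 to 4.23). Klf12 had 3 and 50 reads, a ratio of 19.8 (6.39 to 99.2), and an RPKM of at most 0.282. By RPKM Klf8 stood above Klf3 in the ICM library and below it in whole blastocysts, and by reads it stood above Klf3 in both, since the length behind its RPKM is 3447 bases against 1152 for Klf3.

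Of the KLF genes whose proteins bind SIN3A, Klf9 and Klf11 were lower in the ICM library and Klf16 was higher. Klf9, a target of steroid and thyroid hormone receptors, had 3947 and 1442 reads, an RPKM of 39.4 (38.1 to 40.6) and 17.1 (16.2 to 18.0), and was 2.31-fold lower (2.17 to 2.45). Centred, its ratio was 0.684 (0.644 to 0.727), so its place past 2-fold depended on the scaling. Klf10, an early target of TGF-beta, had 1347 and 1011 reads and an RPKM of 17.1 (16.2 to 18.0) and 15.2 (14.3 to 16.2). Its ratio was 0.891 (0.820 to 0.967) as deposited and 1.41 (1.29 to 1.53) when centred, so its direction changed with the scaling, as did that of Klf3. Klf13 rested on 5 and 2 reads, with a ratio of 0.475 (0.0452 to 2.90), so no difference was detectable at this depth. Among their relatives outside the 8, Klf11 had 3308 and 1070 reads and was 2.60-fold lower (2.43 to 2.79), while Klf16 had 117 and 299 reads and a ratio of 3.03 (2.44 to 3.79).

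The other KLF genes were measured more thinly. Klf1, the erythroid factor, had no read in whole blastocysts and 59 in the ICM, and was at least 23.3-fold higher against a floor of 3 reads in the library at 0. The floor is a convention, and the 95% counting interval of the ratio itself starts lower, at 18.4. Klf15 went the other way, from 66 reads to none, which is at least 18.5-fold lower by the same floor, with a counting interval from 14.7. Klf14 (0 and 1 read) and Klf17 (3 and 1) were barely seen. Of the 9 KLF genes outside the 8, 6 reached an RPKM of 1, of which 3 were higher by 2-fold or more and 3 lower (3 and 1 when centred). The SP factors, the sister family with the same type of zinc fingers, held no gene at least 2-fold higher among those that reached an RPKM of 1. Of 9 genes 4 reached an RPKM of 1, 2 of them lower by 2-fold or more, none higher (1 and none when centred). For both families the shares over all genes were 8.96% higher and 44.0% lower (16.9% and 20.5% when centred). Sp1 had 7152 and 3136 reads (ratio 0.520, 0.499 to 0.543), Sp3 was 4.10-fold lower (3.33 to 5.10), Sp2 14.7-fold lower (8.04 to 30.0), and Sp4 had a ratio of 0.648 (0.525 to 0.798). Sp6 had 10 and 5 reads, and Sp8, which stayed under that limit with an ICM RPKM of 0.132, had none and 21 and was at least 8.31-fold higher by the floor, with a counting interval from 6.18.

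**Figure D2:**
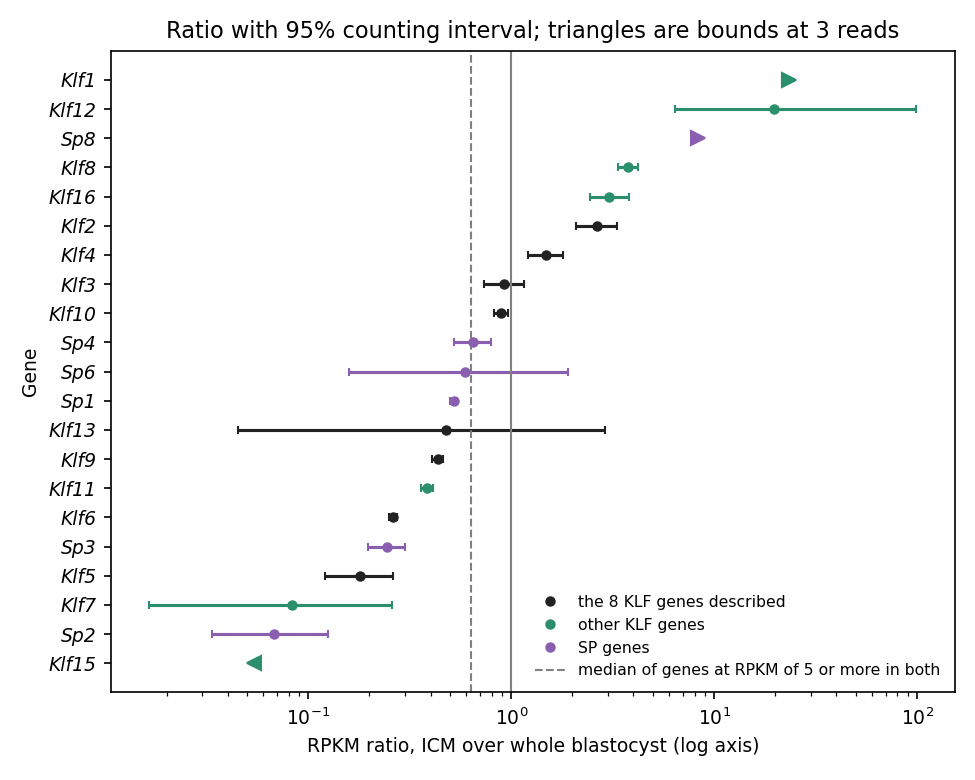
RPKM in the ICM divided by RPKM in whole blastocysts (log axis) for the 8 members (black) and for the other KLF (green) and SP (purple) genes with 10 or more reads in a library, with 95% counting intervals; triangles are bounds at a floor of 3 reads, the solid line is a ratio of 1 and the dashed line the median of genes at an RPKM of 5 or more in both. Klf2 and Klf4 lie to the right of both lines and Klf5, Klf6 and Klf9 to the left of both.

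Within whole blastocysts the order by RPKM was Klf6, Klf9, Klf5, Klf10, Klf4, Klf3, Klf2 and Klf13. The neighbours Klf5 and Klf10, Klf4 and Klf3, and Klf3 and Klf2 had overlapping intervals, and the exact interval of the ratio of each pair held 1, so these were not told apart beyond counting error. Within the ICM the order was Klf9, Klf6, Klf10, Klf2, Klf4, Klf5, Klf3 and Klf13, where Klf9 and Klf6, and Klf5 and Klf3, were not told apart. The intervals of Klf2 and Klf4 touched, and their RPKM ratio in the ICM was 1.28 (1.07 to 1.54). Their ICM reads were level (242 and 241), so this ratio comes from the lengths behind RPKM, 910 and 1163 bases. The interval takes these lengths as exact. Klf2 moved from place 7 to place 4 by RPKM. By reads it also moved from 7 to 4, where it was level with Klf4. Klf5 moved from place 3 to place 6 by RPKM and from 4 to 7 by reads. Among all genes with a read, Klf2 stood at percentile 50.1 of the whole blastocyst and 76.2 of the ICM, Klf5 at 84.2 and 63.1, and Klf6 at 96.0 and 89.4.

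These levels rest on short gene lengths. Reads divided by RPKM gave, for every gene, its length times the library total, and totals of 45011450 reads (whole blastocyst) and 37920430 (ICM) made each length a whole number of bases. The length so recovered was 910 bases for Klf2, 1152 for Klf3, 1163 for Klf4, 258 for Klf5, 3161 for Klf6, 2228 for Klf9, 1751 for Klf10 and 430 for Klf13. In 4 of the 8 it lay within 5 bases of the last exon of a GENCODE M21 transcript, which is 913 bases in Klf2, 1158 in Klf4, 3163 in Klf6 and 1752 in Klf10. For Klf5 it was 7.70% of the longest transcript (3352 bases), and for Klf7, at 91 bases, 1.19%. The sources used here do not say whether reads outside these lengths were counted. The ratio of a gene between the libraries is free of its length, but the order of genes is not. By reads alone Klf5 made up 1.43% of the 8 members in whole blastocysts, against 12.5% by RPKM.

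**Figure D3:**
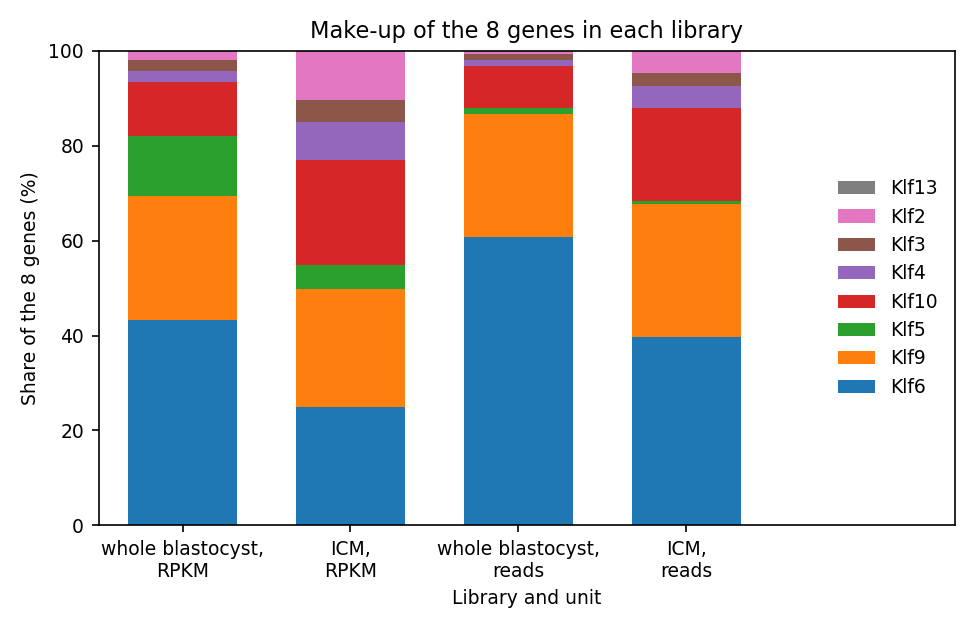
Share of each of the 8 genes in their sum (percent), by RPKM in the left pair of bars and by reads in the right pair, for the whole blastocyst and the ICM. The Klf6 share is smaller in the ICM by both units (24.9% against 43.3% by RPKM, 39.6% against 60.7% by reads), and the Klf5 share depends on the unit; Klf13, at 0.179% or less, is too thin to see.

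The factors that act with KLF2, KLF4 and KLF5 lay on the higher side by their median. Of 12 naive pluripotency factors 11 reached an RPKM of 1, of which 5 were higher by 2-fold or more and 1 lower (8 and 1 when centred). Their median difference was 0.86. The shares over all genes were 8.96% higher and 44.0% lower (16.9% and 20.5% when centred). The nuclear receptor gene Esrrb (98 and 992 reads) and the T-box gene Tbx3 (331 and 1652 reads, ratio 5.92, 5.26 to 6.69) had a larger ratio than Klf2, and Nr0b1 had no read in whole blastocysts. Nr5a2, another nuclear receptor of the network, was 4.78-fold lower (4.30 to 5.33), close to the ratio of Klf5. Tcfcp2l1 (current symbol Tfcp2l1) and Zfp42 had ratios of 0.655 (0.645 to 0.665) and 0.777 (0.705 to 0.856). Centred, these were 1.03 (1.02 to 1.05) and 1.23 (1.11 to 1.35), so their direction changed with the scaling.

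The pathways that act on Klf4 and Klf2 held genes on both sides, as did all genes together. Of all 8981 genes past the RPKM limit, 8.96% were 2-fold or more higher and 44.0% lower (16.9% and 20.5% when centred). In the list of LIF and STAT3 signalling, 2 of 10 were 2-fold or more higher and 5 lower (4 and 3 when centred). The receptor genes Il6st (ratio 2.93, 2.54 to 3.39) and Lifr (3.56, 3.02 to 4.21) and the feedback inhibitor Socs3 (5 and 118 reads) stood on the higher side, and the ligand Lif (630 and 31 reads), the kinase Jak1 (6.73-fold lower, 5.55 to 8.24) and Pim3 (8.86-fold lower, 5.77 to 14.3) on the lower. In the list of ERK signalling, which marks KLF2 and KLF4 protein for breakdown, 3 of 17 genes were higher and 6 lower (4 and 1 when centred). The ligand Fgf4 (29 and 219 reads) and the pathway's target Etv5 and inhibitor Spry4 were higher, while Sos1 (5.81-fold, 5.01 to 6.77) and Dusp6 (6.63-fold, 4.58 to 9.91) were lower. Of the TGF-beta genes upstream of Klf10, 5 of 8 reached an RPKM of 1, none higher and 2 lower (1 and 1 when centred). Smad7, the inhibitor of the pathway, had 257 and 5 reads, Smad4 was 3.17-fold lower (2.71 to 3.72), Smad2 had a ratio of 0.598 (0.545 to 0.656) and Smad3 one of 1.47 (1.26 to 1.73).

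Genes for the partners of KLF proteins are read against the 44.0% of all genes that were at least 2-fold lower and the 8.96% higher, and their counts lay near these shares or below them. Of 12 corepressor and coactivator genes, 1 was at least 2-fold higher and 4 lower (1 each when centred). Sin3a, the corepressor bound by KLF9 and KLF10, went from 916 to 46 reads and was 16.8-fold lower (12.5 to 23.1). Sin3b, on 59 and 51 reads, had a ratio of 1.03 (0.691 to 1.52), or 1.62 (1.09 to 2.40) when centred. Of the genes for CtBP, which KLF3 recruits, Ctbp1 was 4.97-fold lower (3.34 to 7.64). Ctbp2, on 570 and 363 reads, had a ratio of 0.756 (0.661 to 0.864), or 1.19 (1.04 to 1.36) when centred. Crebbp was 4.15-fold lower (3.51 to 4.94). Fhl3, a LIM protein, was the higher gene, on 5 and 39 reads. Of the 9 genes of KLF protein turnover at an RPKM of 1 or more none was higher and 4 were lower (none and 2 when centred), with Vhl at 6.08-fold (5.09 to 7.30), the KLF5 and KLF2 ligase gene Wwp1 at 4.36-fold on 1066 and 206 reads and Itch at 2.84-fold (2.65 to 3.05).

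Klf2, Klf4, Klf6 and Klf10 can also be induced quickly by stress, so the immediate early genes stand beside them. Of 15 such genes 7 reached an RPKM of 1, of which 1 was at least 2-fold higher and 1 lower (2 and 1 when centred). Among all genes 8.96% were higher and 44.0% lower (16.9% and 20.5% when centred). The list summed to an RPKM of 45.8 in whole blastocysts and 32.7 in the ICM. Egr1 had 3 and 373 reads and Btg2 a ratio of 1.48 (1.31 to 1.67), while Dusp1 was 4.10-fold lower (3.47 to 4.89). By the ratio of RPKM Myc was 2.10-fold lower (1.65 to 2.69) and Nr4a1 2.13-fold lower (1.19 to 3.99). Both were short of 2-fold on the scale of the counts, which adds 1 to each RPKM. Centred, their ratios were 0.752 (0.587 to 0.957) and 0.740 (0.396 to 1.33). Of the genes under an RPKM of 1, Fosb had 6 and 62 reads and Ier3 8 and 21. On the other side, Ier2 had 66 and 49, Atf3 42 and 9, Fos 9 and 5, Egr2 4 and none and Junb 2 and none. Fosl1 had no read in either library. Most markers of other cells stayed under an RPKM of 1 in both libraries. Those that reached it were Thy1, Vim, Cd68 (3.67 in whole blastocysts), Cd3e (1.32 there) and Cyp19a1 (2.25 in the ICM). Of the 8 mesenchyme markers Thy1 (6 and 351 reads) and Vim (7 and 289) were higher in the ICM library, and the collagen genes Col1a1, Col1a2 and Col3a1 had at most 1 read. The list summed to an RPKM of 0.580 and 29.1. The blood and immune markers summed to 5.18 and 0.848, mainly from Cd68 (22 and 2 reads) and Cd3e (50 and 14), with Hbb-b1 at 0 in both libraries, and the cumulus and uterine markers to 0.681 and 2.74, most of it Cyp19a1 with 91 ICM reads. The part of immediate early induction and of other cells in the KLF levels was not tested.

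Likeness over 2 libraries is a weak description, since many genes share any such pair of levels. By distance on log2(RPKM + 1) the nearest gene was Snap47 for Klf2 (RPKM of 2.63 and 6.91), Ubap2l for Klf3, Btg2 for Klf4 (3.71 and 5.49), Cox15 for Klf5 (19.4 and 3.30), Metap1 for Klf6 (65.1 and 16.8), Stx16 for Klf9 and Mrps2 for Klf10.

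The direction of 5 members held under each scaling, pseudocount and filter tried, above 0 for Klf2 and Klf4 and below 0 for Klf5, Klf6 and Klf9. A pseudocount cannot change the sign of a difference, and a filter leaves a gene's value as it is. Only the scalings could therefore change a direction, and each raised the members in the ICM relative to whole blastocysts. Klf2 and Klf4, already above 0 as deposited, could not reverse under them, so their direction was not put to a test. Klf5, Klf6 and Klf9 could have crossed 0 and did not. Klf2 ranged from 0.65 to 2.28 on the log2 scale, Klf4 from 0.27 to 1.48, Klf5 from -2.44 to -1.38, Klf6 from -1.93 to -0.97 and Klf9 from -1.20 to -0.24. Klf3 (-0.12 to 0.81) and Klf10 (-0.17 to 0.79) lay on either side of 0.

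**Figure D4:**
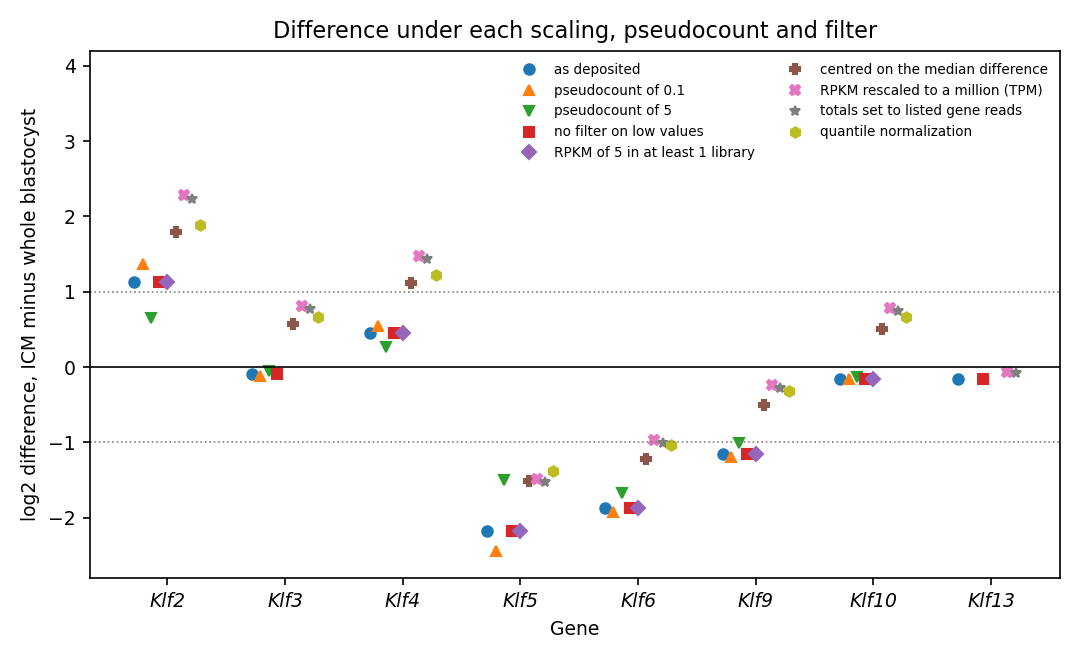
log2 difference (ICM minus whole blastocyst) of each gene as deposited and under 8 alternatives, one symbol for each setting; dotted lines mark a 2-fold difference. Klf2 and Klf4 lie above 0 and Klf5, Klf6 and Klf9 below 0 under all of them, while Klf3 and Klf10 cross 0 and Klf13, which passes few of the limits on low values, has fewer points.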

How the data were processed

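The deposited table holds, for each gene and each of the 2 libraries, the authors' read count (a whole number, not normalized) and the RPKM that the authors made from it. Per the submitters' processing notes the build was mm9. The sources used here name no aligner, gene annotation, strand setting or treatment of multi-mapping reads. Per the labels' protocols, RNA was isolated with a PicoPure kit, amplified with NuGEN Ovation and built into SOLiD fragment libraries.

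The RPKM totals and gene lengths were recovered from reads divided by RPKM. Lengths came out whole within 0.01 base in 100.0% of 2020 genes with over 1000 whole-blastocyst reads, and were the same in both libraries in 100.0% of 7089 genes with 20 or more reads in each. The 2-fold calls used a pseudocount of 1 and genes that reached an RPKM of 1 in a library. Ratios carry exact conditional (Clopper-Pearson) intervals, levels exact Poisson intervals and pairs of members exact conditional odds-ratio intervals, all at 95%. No p-value was computed. Calculations used Python 3.11.15 and scipy 1.17.1 and were tested on simulated counts. Exon lengths and transcripts came from GENCODE M21 and promoters from RefSeq, both on GRCm38, so their coordinates are not those of the files. Exons were matched by gene symbol.

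Genes named were all members, the other KLF and SP genes with 10 or more reads, up to 3 genes of each other list in each direction by size of difference, the nearest gene of each member, and a few marker and list genes chosen after their values were seen. A gene that this rule takes is not reported here. The members and lists were chosen with earlier results of these data known. Alternatives were 2 pseudocounts, 2 filters and 4 scalings.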

Additional observations from a re-analysis of the deposited data

How the results depend on the processing

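The number of members at least 2-fold higher in the ICM was 1 as deposited, 0 with a pseudocount of 5, and 2 (Klf2 and Klf4) when centred, rescaled to TPM, scaled to the listed gene reads or quantile normalized. The number at least 2-fold lower was 3 as deposited, and 2 (Klf5 and Klf6) when centred, scaled to the listed gene reads or quantile normalized. It was 1 (Klf5) with TPM, under which Klf6 was at -0.97. Klf9 fell short of 2-fold under each of these scalings, from -0.50 when centred to -0.24 with TPM. The number lower stayed at 3 with a pseudocount of 5. The Klf6 share in the whole blastocyst was 60.7% by reads and 33.3% over all 17 KLF genes of the table, and the Klf9 share in the ICM was 28.0% and 17.5%. No member past 2-fold changed sign, which only the scalings could bring about, and only for members that were lower as deposited. Of the neighbours in the order of levels, 3 pairs in whole blastocysts and 3 in the ICM had overlapping intervals, and the interval of their ratio, an alternative chosen after seeing the data, held 1 for 3 and 2 pairs. No paired analysis was possible because each group has 1 library, and for the same reason no library could be left out. Depth limits Klf13 (5 and 2 reads) most, then Klf5 in the ICM (33 reads).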

Other observations

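The lengths behind RPKM follow last exons across the table. Of 11744 genes with a recovered length and a multi-exon gene of the same symbol in GENCODE M21, 67.1% had a length within 5 bases of a last exon, 2.68% within 5 bases of another exon and 1.86% within 5 bases of a whole transcript. The median length was 1140 bases. Reads on listed genes were 20.6% of the recovered total for whole blastocysts and 10.9% for ICMs. The members Klf3, Klf5, Klf9 and Klf13 had a length farther than 5 bases from any last exon of this annotation, which is newer than the build of the files.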
